A study of Mus musculus with 36 samples.

Results

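Arginine uptake and metabolism is described here through 5 genes, *Slc7a1* and *Slc7a2* (cationic amino acid transporters), *Nos2* (inducible nitric oxide synthase), *Ass1* (argininosuccinate synthase) and *Odc1* (ornithine decarboxylase). They are 5 of the 24781 genes in the table of counts and were chosen from the known biochemistry of arginine, and on earlier results of these same libraries in which *Slc7a2* was higher in tumour-associated macrophages (TAMs) of *muMt*-/- than of WT mice. The values of TAMs of *muMt*-/- against WT mice, and of GABA-treated *muMt*-/- against WT mice, are therefore given as a description. The study asked how B cells, and GABA (γ-aminobutyric acid) as a product of B cells, shape T cells and macrophages in tumours. MC38 colon adenocarcinoma cells were inoculated into mice, and on day 7 100 TAMs or 100 CD8+ T cells were sorted from a tumour for each library of digital RNA sequencing, which counts barcoded molecules and not their amplified copies. Each of the 2 cell types had 6 libraries of WT mice, 6 of *muMt*-/- mice and 6 of *muMt*-/- mice that carried a GABA-releasing pellet, 36 libraries in all. The labels list no treatment for the first 2 groups, which the methods of the study describe as placebo-treated, and the mice of the whole study were of both sexes and from 2 to 5 months old. The study lists C57BL/6J for *muMt*-/- mice and C57BL/6J or C57BL/6N for WT mice, and which of them the WT mice of these libraries were is not given in the sources used here. Mature B cells are missing from *muMt*-/- mice throughout life, so that their loss is not confined to the tumour, and the gene disrupted in them was not analysed here, nor was there a WT group with GABA.

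Arginine enters cells mainly through the cationic amino acid transporters and is then competed for by several enzymes. Part of it becomes ornithine, which ornithine decarboxylase turns into the first polyamine, while nitric oxide synthases turn it into nitric oxide and citrulline, from which argininosuccinate synthase starts the way back to arginine. Macrophages are known for strong and inducible use of both routes, and activated T cells need arginine from outside to proliferate.

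The median TAM library held 242756 molecules in WT mice, with a range from 206394 to 304100. In *muMt*-/- mice the median was 149960 (from 100254 to 253608), and with GABA it was 192775 (from 151856 to 262606). The CD8+ T cell libraries held fewer, with medians of 42065.5 in WT (from 22896 to 76898), 67121.5 in *muMt*-/- (from 51064 to 77839) and 80283 in GABA-treated *muMt*-/- mice (from 65356 to 98015), so that zeros are more likely in those of WT mice. Defining markers had higher means in their own cell type, but the T cell libraries were not free of macrophage genes. *Adgre1*, which encodes the F4/80 antigen used for sorting TAMs, was at 290.5 ± 66.9 CPM (counts per 1000000 molecules of the library, mean ± SD, n = 6) in TAMs of WT mice and at 0 in all 6 libraries of T cells from WT mice. *Cd8a* was at 719 ± 223 CPM (SD, n = 6) in T cells of WT mice and at 0.659 ± 1.62 (SD, n = 6) in their TAMs. In T cells of *muMt*-/- mice, however, *Adgre1* molecules were found in 3 of 6 libraries, and likewise in 3 of 6 of GABA-treated mice. Other macrophage genes were found more widely. In T cells of WT mice *Itgam* was at 0 in 3 of 6 libraries, *Csf1r* in 4 and *Cd68* in 2. In those of *muMt*-/- mice *Itgam* and *Csf1r* had means of 188 and 163 CPM and were at 0 in no library. In these bulk libraries, fewer cells expressing a gene and less of its RNA per cell cannot be told apart.

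The normalized number of molecules used below is a library's count scaled by its DESeq2 size factor, which was computed over the 18 libraries of the same cell type. All 5 genes had a mean above 1, the minimum for testing, in TAMs and in T cells. Counts of molecules in a TAM library ranged from 9 to 65 for *Nos2*, but from 0 to 13 for *Slc7a1*, so that precision differed between the genes.

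Among the transporters, *Slc7a2*, which encodes an inducible carrier of arginine, lies on chromosome 8 from 40862341 to 40922070 (mm10). Its lowest, median and highest normalized numbers in TAMs were 3.69, 9.82 and 15.3 in WT mice. In *muMt*-/- mice they were 13.8, 39.8 and 46.0, and in GABA-treated *muMt*-/- mice 18.3, 23.8 and 27.4. *muMt*-/- replicate 3 was the low library of its group and the 1 that overlapped with WT libraries, whereas the GABA-treated libraries lay above every WT library and within the range of the *muMt*-/- libraries. GABA-treated and WT libraries did not overlap, in either direction, for 0.57% of all 9469 tested genes. The log2 fold change of *Slc7a2* between *muMt*-/- and WT mice was 1.80 ± 0.26 (SE), and 3 of the 5310 genes with a mean of at least 5 had a larger one. With GABA, *muMt*-/- mice differed from WT mice by 1.31 ± 0.26 (SE), and 4 of these genes had a larger value. *Slc7a1*, the transporter found in most cell types, had medians of 7.04 in WT, 5.59 in *muMt*-/- and 7.35 in GABA-treated *muMt*-/- mice, and its ranges in the 3 groups overlapped. It therefore did not share the pattern of *Slc7a2* in TAMs.

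*Nos2*, which makes nitric oxide in activated macrophages, had lowest, median and highest normalized numbers of 8.30, 18.7 and 40.8 in TAMs of WT mice. In *muMt*-/- mice these were 18.1, 40.6 and 60.6, and in GABA-treated *muMt*-/- mice 14.2, 32.9 and 51.3. The order of the medians was that of *Slc7a2*, but the 3 groups overlapped. *Ass1*, which feeds citrulline back towards arginine, had medians of 27.7, 38.1 and 33.3 in the same groups and also overlapped. *Odc1*, the first enzyme of polyamine synthesis, had medians of 27.1, 19.9 and 24.3, with overlapping ranges. Within the groups, after subtracting each group's mean from the log2 values, Pearson's r over the 18 TAM libraries was 0.72 between *Nos2* and *Ass1* and 0.13 between *Nos2* and *Slc7a2*. It was −0.54 between *Ass1* and *Odc1* and −0.34 between *Nos2* and *Odc1*. The other pairs lay between −0.07 (*Slc7a2* and *Ass1*) and 0.31 (*Slc7a1* and *Odc1*). These values describe libraries that also differ in depth.

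**Figure D1:**
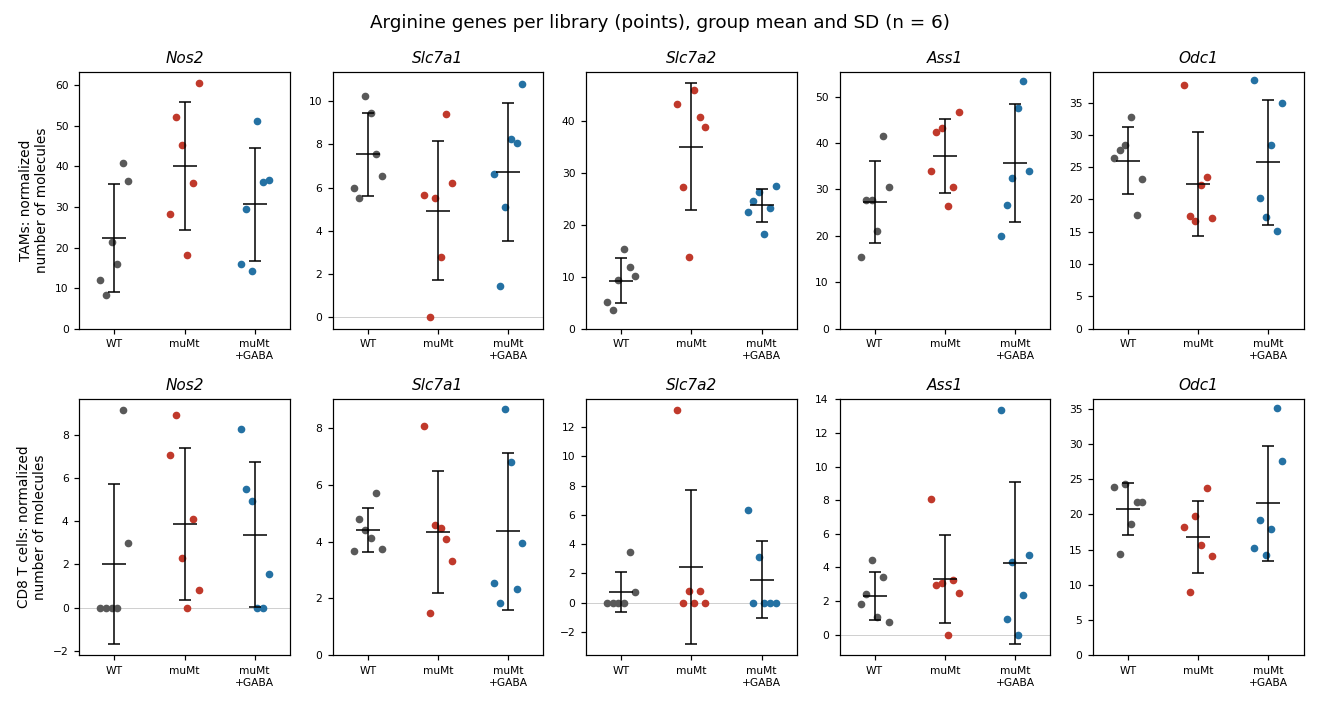
Normalized number of molecules (y axis, a different scale in each panel) of each of the 5 genes in every library, by group and cell type (x axis); points are libraries, and bars show the mean ± SD of 6. In TAMs, *Slc7a2* lies between 18.3 and 27.4 in GABA-treated *muMt*-/- mice, above all WT libraries, and 5 of 6 *muMt*-/- libraries lie above them too.

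Genes were called at an adjusted p under 0.05 from edgeR over all genes tested. Between *muMt*-/- and WT mice, 1 of 5 genes was called in TAMs, *Slc7a2*, where 2.05% of all 9469 tested genes were called. Since the genes were chosen on this comparison, nothing is read from that count. For GABA-treated *muMt*-/- against WT mice it was also 1 of 5, *Slc7a2*, beside 0.0739% of all genes, and again nothing is read from it. The count was 0 of 5 without any of WT replicates 1, 2, 3 and 6 or GABA-treated replicates 2, 3 and 6, and with edgeR's own filter on low counts.

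The effect of GABA within *muMt*-/- mice shares the *muMt*-/- libraries with the comparison on which *Slc7a2* was chosen. Since *Slc7a2* was chosen for being high in these libraries, a lower value with GABA is favoured by the choice, and its fall is given as a description. By edgeR 0 of 5 genes were called in TAMs, beside 0.0211% of all genes. At an unadjusted p under 0.05 there was 1 of 5, *Slc7a2*, which was lower with GABA, beside 8.46% of all genes. DESeq2 called 0 of 5, but after its own filter it gave an adjusted p to at most 1069 genes and none to *Slc7a2*. Nothing is therefore read from its count. The log2 fold change of *Slc7a2* was −0.49 ± 0.23 (SE), with an adjusted p of 0.573 from edgeR. Of the 5310 genes with a mean of at least 5, 313 had a smaller one. Two-sided exact permutation tests compared the means of 6 against 6 libraries for the 5 genes in this and the 3 T cell comparisons, where the smallest possible p is 0.00216. Of these 20 tests 0 had an adjusted p under 0.05, on normalized numbers or on CPM. Unadjusted it was 1 on normalized numbers, *Slc7a2* in TAMs with an exact p of 0.0498, and 0 on CPM. The other 4 genes had log2 fold changes between −0.34 (*Nos2*) and 0.34 (*Slc7a1*), and their exact p was 0.292 or more.

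Several measures differed between the TAM groups alongside *Slc7a2*. The number of molecules per library was lowest in *muMt*-/- mice, as given above. The summed level of 6 monocyte markers, led by *Ccr2*, was 1638 ± 203 CPM (SD, n = 6) in WT, 2736 ± 762 in *muMt*-/- and 2150 ± 249 in GABA-treated *muMt*-/- mice. That of 4 nuclear RNAs, led by *Malat1*, was 3640 ± 251, 6332 ± 2088 and 4109 ± 707 in the same order, and all 6 *muMt*-/- libraries lay above all WT libraries. The sum of 7 epithelial markers, led by *Cdh1* with 5 or 6 of 7 at 0, was lower but had the same order, with 45.5 ± 5.53, 97.5 ± 40.9 and 61.5 ± 32.6, and again all 6 *muMt*-/- libraries lay above all WT libraries. The group means of 8 neutrophil markers (68.4, 111 and 79.6) and 8 dendritic cell markers (17.5, 40.8 and 36.1) had this order too, with ranges that overlapped. These 5 sums thus had the order of the groups seen for *Slc7a2*, and their part in the result was not tested. The sum of 22 macrophage markers, led by *Ctss*, was 23357 ± 2324 in WT, 19423 ± 2081 in *muMt*-/- and 19714 ± 4216 in GABA-treated *muMt*-/- mice. *Slc7a2* molecules per 100 molecules of these markers numbered 0.220, 0.904 and 0.628, so that the order of the groups was kept on this scale. With the number of molecules as a covariate, chosen after seeing the data, the log2 fold change of *Slc7a2* between *muMt*-/- and WT mice was 1.79. The summed levels of 8 B cell markers (*Blnk* highest, 4 or 5 of 8 at 0), 12 T cell markers and 5 natural killer cell markers had group means between 0.808 and 53.2 in TAMs. The sum of 9 stromal and endothelial markers, led by *Col3a1*, reached 5349.7 in WT replicate 6, with a group median of 416.

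Further genes of arginine metabolism were taken from a list of 72 in 8 roles, of which 47 were tested in TAMs. Between *muMt*-/- and WT mice 2 of 47 were called beside the 2.05% of all genes, both lower and both in the role of polyamine regulation and hypusine, and the median log2 fold change of the 47 was −0.29 against −0.05 over all genes. *Dohh*, which completes the hypusine residue of the translation factor eIF5A from a polyamine, had lowest, median and highest normalized numbers of 7.27, 11.98 and 17.4 in WT and 1.88, 4.79 and 6.27 in *muMt*-/- mice. *Oaz1*, the antizyme that directs ornithine decarboxylase to degradation, had 85.0, 95.9 and 103.9 in WT and 39.0, 58.1 and 71.0 in *muMt*-/- mice. For both genes all 6 *muMt*-/- libraries lay below all WT libraries, where the 2 groups did not overlap, in either direction, for 2.48% of all genes. *Dohh* fell by 1.38 ± 0.31 on the log2 scale (SE, adjusted p = 0.0106) and *Oaz1* fell by 0.72 ± 0.20 (SE, adjusted p = 0.0373). *Oaz1* was not called, leaving 1 of 47, without any of *muMt*-/- replicates 1, 2, 4 and 6 or WT replicates 1, 2, 3, 5 and 6, and *Dohh* was not called with DESeq2. With the number of molecules as a covariate neither gene was called, where the calls over all genes fell from 194 to 11. These calls also fell to 67 without *muMt*-/- replicate 4 and to 87 without WT replicate 1.

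Between GABA-treated and placebo-treated *muMt*-/- mice 0 of 47 of these genes were called by edgeR, 4 of 47 had an unadjusted p under 0.05, beside 8.46% of all genes, and 1 was called by DESeq2, among 62 calls over at most 1069 genes to which it gave an adjusted p. The last was *Eif5a*, which encodes the factor that carries hypusine, with lowest, median and highest numbers of 110.7, 128 and 145 in *muMt*-/- and 143, 175 and 194 in GABA-treated *muMt*-/- mice. Its groups overlapped in 1 GABA-treated library, and its log2 fold change was 0.46 ± 0.14 (SE) with an adjusted p of 0.244 from edgeR. In the other roles, the gene with the highest mean in TAMs was *Slc3a2*, the heavy chain of amino acid exchangers, in transport, *Asl* in the urea cycle and *Qdpr* in the supply of the nitric oxide synthase cofactor. In polyamine synthesis and breakdown it was *Sat1*, which acetylates polyamines, with means of 53.0 ± 12.1 in WT, 58.0 ± 14.7 in *muMt*-/- and 54.0 ± 6.84 in GABA-treated *muMt*-/- mice (SD, n = 6). *Oat*, *Gatm* and *Rars* led the roles of ornithine and proline, creatine, and arginine sensing and charging, and none of *Slc3a2*, *Asl*, *Qdpr*, *Sat1*, *Oat*, *Gatm* and *Rars* was called between TAM groups.

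The genes with the pattern most like *Slc7a2* over the 18 TAM libraries, among 5308 genes with a mean of at least 5, were *Suco*, *Snora81*, *Il1a*, *Vegfa* and *Clec7a*. Their Pearson's r of log2 values ranged from 0.85 (Spearman's rho 0.85) for *Suco* to 0.80 (rho 0.72) for *Clec7a*. Without the 2 libraries farthest from the median of *Slc7a2*, r was 0.81 for *Suco* and 0.55 for *Il1a*, and within groups it ranged from 0.35 for *Clec7a* to 0.72 for *Vegfa*. The list describes likeness across libraries of 3 groups that differ and says nothing of shared function.

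In CD8+ T cells the 5 genes were at low counts. *Slc7a2* was at 0 in 11 of 18 libraries, with group medians between 0 and 0.381, and reached 13.1 in *muMt*-/- replicate 1, which stood far above the rest of its group and held 13 of its 15 molecules. *Nos2* was at 0 in 7 of 18 libraries and at most 9.15, in WT replicate 5, and its medians were 0 in WT, 3.19 in *muMt*-/- and 3.27 in GABA-treated *muMt*-/- mice. *Ass1* ranged from 0 to 13.3, *Slc7a1* from 1.49 to 8.68 and *Odc1* from 8.92 to 35.1. *Odc1* and *Slc7a1* were thus the 2 genes with molecules in every T cell library, and the groups overlapped for all 5 genes.

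Between *muMt*-/- and WT mice 0 of 5 genes were called in T cells by edgeR, beside 0% of 6663 genes, with 0 of 5 at an unadjusted p under 0.05 and 0 by DESeq2. The median log2 fold change of all genes was 0.15. The largest of the 5 was that of *Slc7a2*, 1.32 ± 1.13 (SE), or 1.16 relative to this shift, with an adjusted p of 0.955. With the shift included it ranged from 1.04 to 2.65 with 1 library left out. It was 0.57 with the number of molecules as a covariate. The range holds no fit without *muMt*-/- replicate 1, where *Slc7a2* fell below the minimum for testing. The other libraries of that group reached at most 0.818 normalized molecules, and the sign without replicate 1 was not estimated. For GABA-treated *muMt*-/- against WT mice it was also 0 of 5 by edgeR beside 0% of all genes, 0 of 5 unadjusted and 0 by DESeq2, and the largest log2 fold change was that of *Ass1*, 1.02 relative to a shift of 0.21 (SE 0.67, adjusted p = 0.742). With the shift included *Ass1* had 1.23, against 0.38 at the lowest with 1 library left out and 0.03 without the 3 libraries with the most macrophage markers, and GABA-treated replicate 1 held 21 of the 38 molecules of its group. Between GABA-treated and placebo-treated *muMt*-/- mice edgeR called 0 of 5 beside 0% of all genes, with 0 unadjusted and 0 by DESeq2, and the log2 fold changes lay between −0.28 ± 0.87 (*Slc7a2*) and 0.45 ± 0.55 (*Ass1*, SE). With each library left out in turn *Ass1* ranged from −0.36 to 0.82, so that its sign rested on single libraries. *Slc7a2* ranged from −1.46 to −0.06, but again with no value for the fit without *muMt*-/- replicate 1. Its sign without that library was not estimated. Of the 30 other genes of arginine metabolism tested in T cells, 0 were called in any of these 3 comparisons by edgeR or DESeq2. At an unadjusted p under 0.05 there were 3, 3 and 1 in the order given, beside 6.17%, 6.89% and 3.71% of all genes.

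The genes in the T cell libraries were read beside the macrophage markers. Their sum was 839 ± 958 CPM (SD, n = 6) in T cells of WT, 3137 ± 2805 of *muMt*-/- and 2691 ± 1769 of GABA-treated *muMt*-/- mice, and 3 of 22 markers were at 0 in all WT libraries. It reached 41.3% of the mean of TAMs in *muMt*-/- replicate 1, 21.5% in GABA-treated replicate 1 and 21.6% in GABA-treated replicate 3. Over the 18 T cell libraries, Pearson's r between the log2 values of a gene and the log2 sum was 0.78 for *Nos2* (Spearman's rho 0.74, permutation p = 0.00024 and 0.00065, adjusted p = 0.0112 over 6645 genes) and 0.69 for *Slc7a2* (rho 0.70, permutation p = 0.00105 and 0.00164, adjusted p = 0.0304). This relation was chosen after seeing the data. So 2 of 5 genes were called beside 4.82% of all genes. The 3 libraries with the most macrophage markers, however, held 13, 10 and 5 of the 34 *Slc7a2* molecules. *Slc7a2* thus reached the minimum for testing through these libraries, and its values here are a description from which no result is read. Leaving out the 2 libraries farthest from the median gave 0.75 for *Nos2* and 0.61 for *Slc7a2*, and the values within groups were 0.79 and 0.77. Of the 6645 genes, 115 had a larger r than *Nos2* and 234 a larger one than *Slc7a2*. *Ass1* had r = 0.53 (rho 0.58, permutation p = 0.0252 and 0.0128) with an adjusted p of 0.205. *Slc7a1* had r = 0.19 (rho 0.17, permutation p = 0.445 and 0.486) and *Odc1* r = −0.16 (rho −0.19, permutation p = 0.535 and 0.453). In T cell libraries *Nos2* thus followed the macrophage markers, and the value of *Slc7a2* is a description. *Ass1* was not called but had r = 0.58 within groups, and whether it differed from *Nos2* and *Slc7a2* was not tested.

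**Figure D2:**
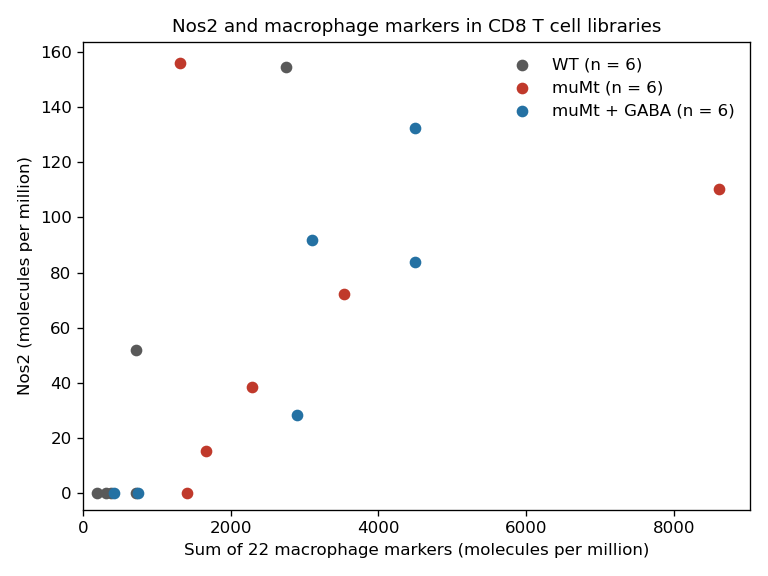
CPM of *Nos2* (y axis) against the summed CPM of 22 macrophage markers (x axis) in the 18 CD8+ T cell libraries, on linear axes; each point is 1 library, coloured by group. *Nos2* is at 0 in 7 libraries, and the markers of these reach at most 6.77% of the mean of TAMs; it is highest in *muMt*-/- replicate 2 (155.9 CPM) and WT replicate 5 (154.6), with 6.30% and 13.2%, and at 110.2 in *muMt*-/- replicate 1, with 41.3%.

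Per 100 molecules of the macrophage markers, the T cell libraries held 4.92 *Nos2* molecules in WT, 2.24 in *muMt*-/- and 2.12 in GABA-treated *muMt*-/- mice, where TAMs held 0.542, 1.08 and 0.834. For *Slc7a2* these were 1.64, 1.20 and 1.09, where TAMs held the 0.220, 0.904 and 0.628 given above. These ratios rest on 69 *Nos2* and 34 *Slc7a2* molecules over the 18 T cell libraries, and those of *Slc7a2* on single libraries, since replicate 1 held 13 of 15 molecules in *muMt*-/- and 10 of 15 in GABA-treated *muMt*-/- mice. The cells from which these molecules came were not tested. Among the other lists in T cell libraries, the sum of 12 T cell markers (*Cd8b1* or *Cd8a* highest) was 4283 ± 1243 CPM in WT, 3542 ± 1252 in *muMt*-/- and 3564 ± 1426 in GABA-treated *muMt*-/- mice. The monocyte markers, led by *Ly6c2*, which T cells also express, summed to 1487 ± 426, 1978 ± 422 and 2056 ± 461. Dendritic cell markers were led by *Ccr7*, a gene of T cells too, with group means from 272 to 345. B cell, neutrophil, natural killer cell and epithelial markers had group means between 9.81 and 93.8, stromal and endothelial markers between 265 and 651, and nuclear RNAs between 3018 and 4159.8.

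Between the 2 cell types, levels were compared in CPM. *Slc7a2* was highest in TAMs of *muMt*-/- mice, then in those of GABA-treated *muMt*-/- and of WT mice, with 179 ± 61.3, 126 ± 17.2 and 49.9 ± 23.6. T cells followed in the same order of group means, with 38.7 ± 81.6, 25.8 ± 42.9 and 11.8 ± 23.2. Of the neighbours only TAMs of GABA-treated *muMt*-/- and of WT mice differed by more than the larger SD. The order in T cells rested on single libraries. Replicate 1 reached 204.7 CPM in *muMt*-/- and 102 in GABA-treated *muMt*-/- mice, where the group medians were 6.42 and 0. *Nos2* had the same order, with 207 ± 82.6, 164 ± 78.5 and 120.3 ± 70.6 in TAMs and 65.4 ± 59.6, 56.1 ± 54.7 and 34.4 ± 62.4 in T cells, where no pair of neighbours differed by more than the SD of either. *Ass1* was at 192 ± 44.0 in TAMs of *muMt*-/-, 191 ± 72.4 of GABA-treated *muMt*-/- and 146 ± 45.8 of WT mice, ahead of T cells with means from 40.5 to 71.9 and an SD of up to 77.0, and no neighbours differed beyond the larger SD. All TAM groups were thus ahead of all T cell groups for these 3 genes.

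*Odc1* and *Slc7a1* had the opposite order. *Odc1* was at 379.7 ± 162 in T cells of GABA-treated *muMt*-/- mice, 363 ± 59.7 of WT and 288 ± 86.7 of *muMt*-/- mice, and TAMs followed with 139.7 ± 29.1 in WT, 135 ± 48.3 in GABA-treated *muMt*-/- and 115 ± 43.2 in *muMt*-/- mice. Neighbours within a cell type did not differ beyond their spread. *Slc7a1* was between 73.5 and 77.4 in the T cell groups, which did not differ beyond their spread, and at 40.5 ± 10.8 in TAMs of WT, 35.7 ± 17.4 of GABA-treated *muMt*-/- and 25.3 ± 16.4 of *muMt*-/- mice, each within the SD of its neighbour. Since TAMs held more molecules per 100 cells, the counts themselves had another order, with 11 to 45 *Odc1* molecules in a TAM library and 6 to 45 in a T cell library.

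Fitted over 36 libraries and averaged over the 3 groups, TAMs against T cells gave calls for 5 of 5 genes, beside 39.1% of 8477 genes, 3 higher and 2 lower in TAMs. With edgeR's own filter, under which *Slc7a1* was not tested, 4 were called. Within single groups *Slc7a2* was not called in WT mice (adjusted p = 0.0991), and *Slc7a1* was not called in WT (0.410) and *muMt*-/- mice (0.0528). The median log2 fold change of all genes was 0.19. Relative to it, *Ass1* was higher by 1.73 (SE 0.26, adjusted p = 6.25e-09), with 6 of 18 TAM libraries above every T cell library, and *Nos2* by 1.53 (SE 0.31, adjusted p = 6.97e-06). *Slc7a2* was higher by 2.19 with this shift included (SE 0.37, adjusted p = 1.96e-06), which is given as a description, since the TAM libraries in which it was chosen for being high are part of this average. *Odc1* had −1.35 (SE 0.15, adjusted p = 1.81e-09), with 14 of 18 TAM libraries below every T cell library, and *Slc7a1* had −1.11 (SE 0.25, adjusted p = 0.00195). As a share of the molecules of a library, *Ass1* and *Nos2* were thus higher in TAMs, and *Odc1* and *Slc7a1* in T cells. In molecules, the TAM libraries held more of these 2 as well, 473 against 389 of *Odc1* and 129 against 88 of *Slc7a1* over 18 libraries each. Without the 3 T cell libraries with the most macrophage markers the log2 fold change of *Slc7a2* was 4.67, against 2.19 with them.

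Of the 40 other genes of arginine metabolism tested in this fit, 17 were called beside the 39.1% of all genes, 12 higher and 5 lower in TAMs, and their median log2 fold change was 0.17. *Gatm*, which starts creatine synthesis from arginine, was higher by 3.54 relative to all genes (SE 0.24, adjusted p = 6.03e-20). *Slc7a7*, *Slc7a8* and *Ckb*, with no molecule in any of the 6 WT libraries of T cells, also count among the 12. Their mean normalized numbers in T cells were at most 0.666 in a group, so that they reached the minimum for testing through their level in TAMs, and their direction is not read as a result. *Sat1* and *Smox*, which act in polyamine breakdown, were higher by 1.24 and 1.41 relative to all genes, and *Atp13a2*, a lysosomal polyamine exporter, by 1.80. *Pqlc2*, *Slc6a8*, *Asl*, *Oat* and *Rars* made up the genes higher in TAMs, by 0.36 (*Rars*) to 1.16 (*Pqlc2*). In T cells, however, group means were between 0.207 and 0.862 for *Pqlc2* and between 0.465 and 1.07 for *Slc6a8*. Both thus also reached the minimum for testing through their level in TAMs, and their direction is not read as a result either. Lower in TAMs were *Sms* (−1.62) and *Srm* (−0.81), which make spermine and spermidine, together with *Slc7a5* (−1.95), *Padi2* (−2.40) and *Aldh18a1* (−1.06). With edgeR's own filter 7 genes of the list were called, 5 of these 17 together with *Eif5a* and *Oaz1*. *Srm* was also not called without a filter or without WT replicate 4 of the T cells. *Slc6a8* was not called with DESeq2, with the replicate number as a block and in most fits with 1 library left out, and *Pqlc2* with DESeq2 and in some of these fits.

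The difference between the responses of the cell types was estimated in the same fit. For the loss of B cells it includes the comparison on which *Slc7a2* was chosen, and for GABA it shares the *muMt*-/- libraries, so that the values of *Slc7a2* are a description. For the loss of B cells 0 of 5 genes were called by edgeR, beside 0.0118% of all genes, with 0 of 5 at an unadjusted p under 0.05 and 0 by DESeq2, which gave an adjusted p only to *Odc1* of the 5. The difference between the response of TAMs and that of T cells was 0.72 for *Slc7a2* relative to the median of all genes of −0.30 (SE 1.46, adjusted p = 0.964), and 0.34 for *Nos2* (SE 1.15, adjusted p = 1). Before this median was subtracted, the value of *Slc7a2* ranged from −1.06 to 2.92 when each library was left out in turn, and that of *Nos2* from −1.19 to 0.54, so that their signs rested on single libraries. For GABA it was also 0 of 5 by edgeR, beside 0% of all genes, with 0 unadjusted and 0 by DESeq2. *Slc7a2* had −0.27 ± 0.89 (SE) and *Nos2* −0.19 ± 0.76 (SE). With each library left out in turn these ranged from −2.75 to 0.94 and from −0.68 to 0.34, so that their signs rested on single libraries too. For these 2 genes the SEs leave room for large differences in either direction, and for the other 3 they were between 0.36 (*Odc1*) and 0.76 (*Ass1*).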

How the data were processed

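Digital RNA sequencing counts of 36 libraries (18 of TAMs, 18 of CD8+ T cells) were analysed. The values are counts of distinct molecules per gene that the authors deposited, after mapping with STAR to mm10, and no normalization was found in them. Depth by group is given in the report. For normalized numbers, counts were scaled by DESeq2 size factors within each cell type. Genes with a mean above 1 were tested with edgeR 4.0.16 (quasi-likelihood F-test, TMM, library size over the tested genes, 1 coefficient per group) in 3 fits, of TAMs, of T cells and of all 36 libraries. P-values were adjusted by Benjamini-Hochberg over all genes tested, with a threshold of 0.05. Library size over all genes, which gave 195 and not 194 calls between TAMs of *muMt*-/- and WT mice, was seen as well before this definition was settled. Other tools were R 4.3.3, DESeq2 1.42.0 (Wald test), matplotlib 3.10.9, scipy 1.17.1, pandas 2.3.3 and numpy 2.4.6 in Python 3.11.15. Two-sided exact permutation tests used all 924 arrangements of 6 against 6 libraries, and correlations used log2 values with a pseudocount of 1 and 100000 permutations.

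The members and all gene lists were chosen with earlier results of these data known. Of the 7 genes chosen, 2 are not reported here and were left out of the counts, exact tests and correlations of these genes, but not of the fits over all genes. Named genes were the other 5, each gene of the list of 72 that was called in a comparison, the gene with the highest mean in TAMs in each of its 8 roles, and the 5 genes most like *Slc7a2*. Marker lists covered macrophages, monocytes, T, B, natural killer and dendritic cells, neutrophils, epithelium, stroma with endothelium, and nuclear RNA. Of these markers 3, *Trbc1*, *Trbc2* and *Trac*, are absent from the table and were not analysed here. Coordinates are those of RefSeq for mm10.

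Alternatives were DESeq2 size factors, DESeq2's test, no filter, filterByExpr, a block for replicate number, a fit to the 12 libraries compared and leaving out each library. The number of molecules as a covariate, library size over all genes, leaving out T cell libraries with macrophage markers above 20% of the mean of TAMs, and the relation to these markers were chosen after seeing the data. On simulated data with 100 genes changed by 1 (log2) and 100 by 2, TAMs of *muMt*-/- against WT mice gave calls for 53 and 97 of them and 8 false calls, T cells gave 28 and 88 and 6 false calls, and TAMs against T cells gave 87 and 100 and 24 false calls, a larger share of false calls than the threshold of 0.05.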

Additional observations from a re-analysis of the deposited data

Results flagged for a closer look

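In 5 of 30 combinations of gene and group, 1 library lay apart from the other 5, with a gap to its nearest neighbour that exceeded Dixon's critical value as a share of the range of the group. Chance flags about 1 in 20 groups of normally distributed values. Low counts with many zeros, as in the T cell libraries, are not so distributed, and the number of flags is not read as an excess. In CD8+ T cells of WT mice, replicate 5 was apart for *Nos2* (9.15) and *Slc7a2* (3.43), and its macrophage marker sum was 13.2% of the mean of TAMs, the highest of the WT libraries. In T cells of *muMt*-/- mice, replicate 1 was apart for *Slc7a2* (13.1), with a macrophage marker sum of 41.3% of the mean of TAMs. In T cells of GABA-treated *muMt*-/- mice, replicate 1 was apart for *Ass1* (13.3), with a macrophage marker sum of 21.5% of the mean of TAMs. Its epithelial marker sum, 173 CPM, was the highest of the T cell libraries, but 6 of the 7 markers were at 0 in it. In TAMs, *muMt*-/- replicate 1 was apart for *Odc1* (37.7), and this library held the fewest molecules of all TAM libraries, 100254. The cause was not tested for any of these libraries.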

How the results depend on the processing

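Between TAMs of *muMt*-/- and WT mice 1 of the 5 genes was called in each setting, except for 2 without a filter, where *Nos2* was added (adjusted p 0.0144, against 0.178 in the fit reported). Other arginine genes called there, 2 in the fit reported, numbered 1 with DESeq2 (*Oaz1*, without *Dohh*), 0 with the number of molecules as a covariate (chosen after seeing the data) and 1 to 2 when each library was left out in turn. Between GABA-treated and placebo-treated *muMt*-/- TAMs 0 of the 5 genes were called in each setting, and 1 other arginine gene with DESeq2, where 0 were called by edgeR. Between GABA-treated *muMt*-/- and WT TAMs, where 1 was called, it was 0 with filterByExpr (adjusted p of *Slc7a2* 0.0503, over a range from 6.95e-05 to 0.134) and 0 to 1 with a library left out. The cause was not tested. Between the cell types 5 of the 5 genes were called, and 4 with filterByExpr, where *Slc7a1* was not tested. Counts of the 5 genes in T cells and in the differences between the responses of the cell types were the same in each setting. In the fits of T cells, however, *Slc7a2* was below the minimum for testing without *muMt*-/- replicate 1. No called log2 fold change of the 5 genes changed sign under any setting.

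As a replicate block, the replicate number changed no count of the 5 genes. With it 201 of all genes were called between TAMs of *muMt*-/- and WT mice, against 194. Of 18 pairs of libraries with the same number, 0 in TAMs and 5 in T cells correlated above 0.1, and the number was not taken for a pairing.

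The T cell libraries held fewer molecules than the TAM libraries, and in them *Slc7a2* was at 0 in 11 of 18 and *Nos2* in 7. The part of depth in these zeros was not tested. TAM libraries of *muMt*-/- mice held fewer molecules than those of WT mice, so that depth and genotype cannot be fully told apart.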
